A study of Mus musculus with 2 samples.

Results

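Wnt ligands, Frizzled receptors and the mediators that carry their signal were read in LSK cells (Lineage-Sca-1+c-Kit+) of mouse bone marrow, the sorted fraction that holds haematopoietic stem and multipotent progenitor cells. The set was chosen by gene name: every gene called Wnt or Fzd followed by a digit, plus 17 mediators (Lrp5, Lrp6, Dvl1, Dvl2, Dvl3, Axin1, Axin2, Apc, Ctnnb1, Ctnnal1, Gsk3a, Gsk3b, Lef1, Tcf7l1, Tcf7l2, Porcn and Wls). This gave 46 of the 34843 gene names on the array, with 19 Wnt and 10 Fzd genes among them, read by 63 probes. Each gene is represented by its brightest probe over both arrays, and 31 of the 46 have 1 probe.

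The cells of both groups were C57BL/6, carried the genotype Tet2KD/KD; Ezh2Δ/Δ and came from a transplanted myelodysplastic syndrome (MDS), a clonal disease of blood stem cells. They were sorted from secondary recipient mice at week 10 of the graft. One group had received decitabine (DAC), a nucleoside drug that traps DNA methyltransferases, and the other phosphate-buffered saline (PBS). The sample label gives 7 weeks for both, without saying whether these are weeks of dosing or weeks since the first or last dose. Both groups carried the same Tet2 and Ezh2 alleles, so the comparison is of drug with vehicle in mutant cells. The recipients' age, the number of animals behind each array, the Cre driver behind the Ezh2 deletion and the schedule and amount of drug are not stated in the sources used here. Each group had 1 array. No difference could therefore be tested or set against a replicate, and no p-value is given.

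Wnt proteins are secreted lipid-modified ligands. Porcn attaches the lipid, Wls carries the ligand to the cell surface, and the ligand binds a Frizzled receptor together with Lrp5 or Lrp6. Dishevelled proteins then hold back the complex of Axin, Apc and Gsk3 kinases that otherwise marks β-catenin (Ctnnb1) for destruction, and β-catenin acts on target genes through the TCF/LEF factors. In blood the pathway is known for its part in stem cell self-renewal and in early T cell development.

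Signals are given as scaled intensities, in percent of each array's 75th percentile over probes that both arrays read well above background, so that a value of 100 is that percentile. Differences are log2, DAC minus PBS, and levels of single genes were compared within a probe and never between genes. Sums over marker lists add the levels of different genes, so bright probes weigh most in them. Well above background on the DAC array were 56.8% of probes, and on the PBS array 48.5%. The Sca-1 gene Ly6a had 159 in DAC cells and 152 in PBS cells, and Kit had 625 in DAC cells and 575 in PBS cells, so both genes of the sort were present at similar levels. Error was taken from probes printed 10 times on each array. The SD it gave for a log2 difference was 0.32 for genes in the low class of signal, 0.15 in the middle class and 0.09 in the high class (3 classes of equal size). It covers spot-to-spot error within an array and nothing between animals.

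Of the 46 genes, 24 (52.2%) were measured on both arrays, against 52.3% of all gene names. Among these 24, 4 were at least 2-fold higher on the DAC array (Wnt8b, Fzd9, Axin1 and Lef1), 4 were at least 2-fold lower (Ctnnal1, Dvl2, Fzd5 and Lrp6), and 16 lay within 2-fold. These calls are for the brightest probe, and each of the 4 lower genes had another probe with the opposite direction. Of all 18222 measured genes 10.0% were higher by that much and 6.85% lower, beside 16.7% of the set in each direction, which is 4 genes on each side. At 4-fold the set had 0 genes higher and 2 lower (Ctnnal1 and Dvl2), where 1.87% and 1.29% of all genes were. At any size 13 were higher and 11 lower, while 51.4% of all genes were higher. Its median difference was 0.06, beside 0.02 over all measured genes, and the SD over its genes was 1.15, beside 0.81. A further 6 genes (13.0%) were read well above background by the DAC array alone, beside 9.45% of all gene names. The PBS array alone read 2 genes, beside 2.81% of all gene names, and 14 were read on neither. In a sorted population such values cannot tell fewer cells expressing a gene from less RNA per cell.

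**Figure D1:**
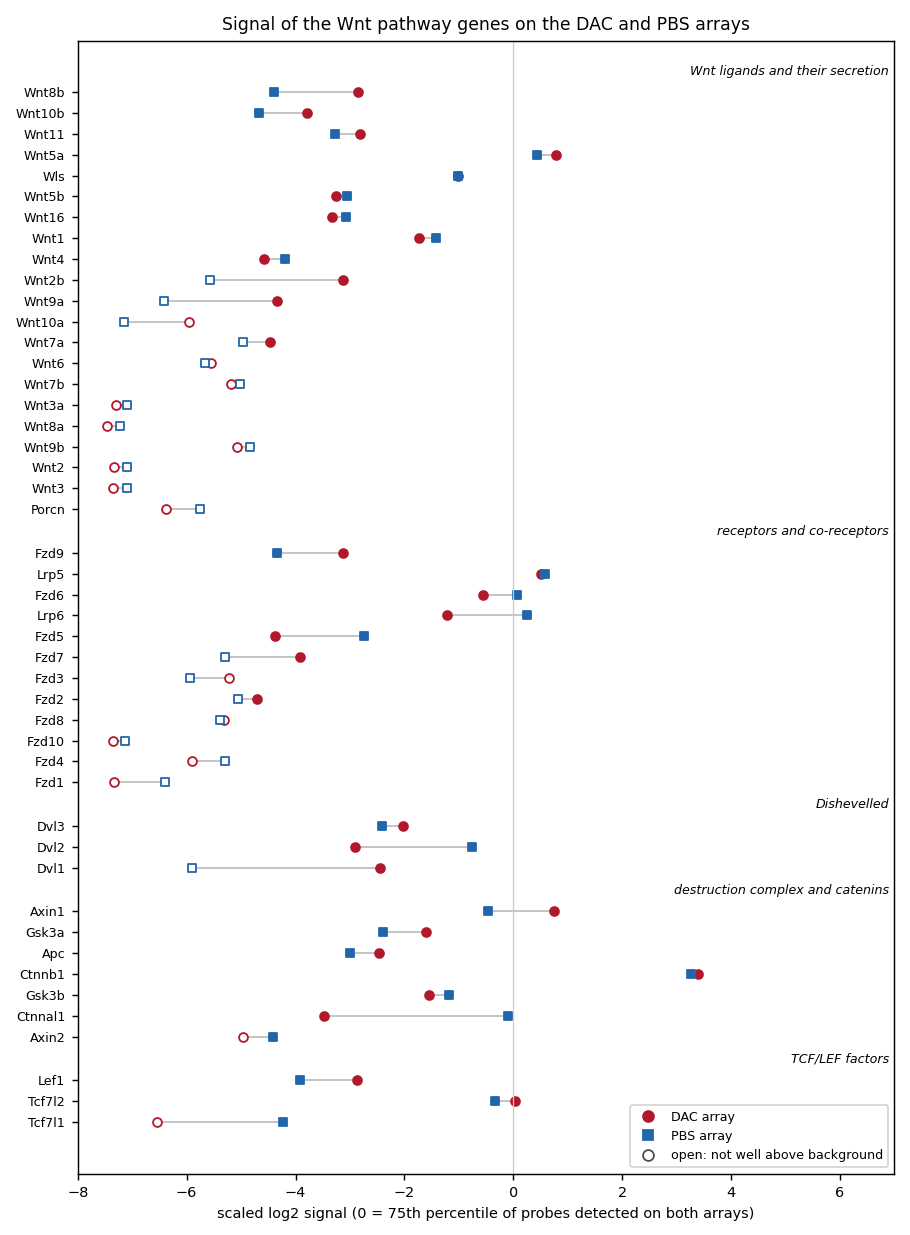
Scaled log2 signal of each gene on the DAC array (red circles) and the PBS array (blue squares), grouped by role, where 0 is the 75th percentile and open symbols were not well above background. The grey lines join the arrays within a gene, and the longest gap between filled symbols is that of Ctnnal1, at -3.47 in DAC cells and -0.10 in PBS cells.

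The letters of 10 probes carry the account that follows, because probes of the same gene read different parts of it and gave different answers. The probes are 60 bases long. The full probe is shown for the Gsk3b probe whose coordinates span more bases than its length, as those of a probe across an exon junction do, and the first 30 bases for the others, each 5′ to 3′ as deposited and listed from the 5′ to the 3′ side of the gene.
Gsk3b upstream, chr16:38187987-38191632, mm9, plus strand: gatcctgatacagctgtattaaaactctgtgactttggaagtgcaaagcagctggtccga
Gsk3b middle, chr16:38241177-38241236, plus strand: tgtgtacttatccttaggatttgaagactt
Dvl2 upstream, chr11:69823260-69823319, plus strand: ggtagatggggacctttggttatttttagc
Dvl2 downstream, chr11:69825744-69825803, plus strand: agttgtgaattttgtccccaaactgggtac
Lrp6 upstream, chr6:134404723-134404782, minus strand: atcgagcgcacgtcacgggagcctcctcaa
Lrp6 downstream, chr6:134400440-134400499, minus strand: caaaggaaacaggaaaagaaaggcatcact
Fzd5 upstream, chr1:64781972-64782030, minus strand: acggggacccagtggctggcatctgctatg
Fzd5 downstream, chr1:64779479-64779538, minus strand: aatttcagtggcttccacaagaccttgtac
Ctnnal1 upstream, chr4:56854434-56854493, minus strand: attcagccagtttggaaacgaaatggtgga
Ctnnal1 downstream, chr4:56823874-56823933, minus strand: ctgtaaaagaccatcaaatatgtggcaaca
Strands follow the order of the start and end in the files, which gave the same strand as RefSeq for each of the 33 genes that could be compared. The sources used here do not say whether a probe lies in coding or untranslated sequence.

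Among the ligands, 8 of 19 Wnt genes were measured on both arrays, and 1 was past 2-fold. Wnt8b, a ligand known for its expression in the developing forebrain, had 13.8 in DAC cells and 4.77 in PBS cells, a log2 difference of 1.53 (2.90-fold higher). Its signal was in the low class, and its other probe, 2797 bases upstream, was not above background on either array. Wnt10b, a ligand of the β-catenin branch that haematopoietic cells can make, had 7.23 in DAC cells and 3.91 in PBS cells, a difference of 0.89. Wnt5a, the best studied ligand of the β-catenin-independent branch, was read at 173 in DAC cells and 136 in PBS cells. That is a difference of 0.35, larger than its spot error of 0.09 and well inside 2-fold.

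The other measured ligands lay within 2-fold. Wnt11, a ligand of the β-catenin-independent branch, had 14.2 in DAC cells and 10.3 in PBS cells, a difference of 0.47. Wnt5b had 10.4 in DAC cells and 12.0 in PBS cells, a difference of -0.20, and Wnt16, a ligand known for its role in bone, had 9.98 in DAC cells and 11.9 in PBS cells, a difference of -0.25. Both were smaller than their spot SD of 0.32. Wnt4 had 4.18 in DAC cells and 5.42 in PBS cells, a difference of -0.38. Wnt1, the founding member of the family, had 29.9 in DAC cells and 37.4 in PBS cells, a difference of -0.32. Wnt1 was read by a second measured probe, with 15.0 in DAC cells and 14.8 in PBS cells, a difference of 0.02. The secretion factor Wls, which moves every lipid-modified Wnt to the cell surface, had 49.3 in DAC cells and 49.2 in PBS cells, a difference of 0.00. Porcn, the acyltransferase, was not above background on either array.

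Well above background on the DAC array alone were 3 ligands. Wnt2b had 11.5 in DAC cells and 2.08 in PBS cells, and was at least 3.51-fold higher. A bound of this kind divides the bright signal by the dim probe's own signal or by the dimmest signal that passed the background call on that array, whichever is higher. Wnt9a had 4.92 in DAC cells and 1.18 in PBS cells, with a bound of 1.5-fold, and Wnt7a had 4.52 in DAC cells and 3.22 in PBS cells, with a bound of 1.38-fold. All 3 were dim even in DAC cells. The remaining ligands (Wnt2, Wnt3, Wnt3a, Wnt6, Wnt7b, Wnt8a, Wnt9b and Wnt10a) were not above background on either array. No ligand was found on the PBS array alone.

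Receptors held genes past 2-fold in both directions. Of 10 Fzd genes 3 were measured on both arrays, and both co-receptors were. Fzd9 (chr5:135724815-135724874, mm9), a Frizzled receptor known in B cell development, had 11.5 in DAC cells and 4.92 in PBS cells, a difference of 1.23 (2.34-fold higher) on its 1 probe. Fzd5, a receptor that can bind Wnt5a, had 4.79 in DAC cells and 14.8 in PBS cells, a difference of -1.63 (3.09-fold lower). Fzd6, a receptor that acts mainly in planar polarity and can restrain the β-catenin branch, had 67.8 in DAC cells and 104 in PBS cells. Its difference of -0.62 was 6.75 times its spot SD but inside 2-fold.

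Of the co-receptors, 1 of 2 was past 2-fold. Lrp6, whose phosphorylated tail recruits Axin, had 43.2 in DAC cells and 119.5 in PBS cells, a difference of -1.47 (2.77-fold lower). Lrp5, its close relative, had 141 in DAC cells and 150 in PBS cells, a difference of -0.09, about the size of its spot SD of 0.09. Fzd7 was read by the DAC array alone, with 6.66 in DAC cells and 2.55 in PBS cells, at least 2.03-fold higher, and its other probe was read on neither array. Fzd2 was likewise read by the DAC array alone, with 3.82 in DAC cells and 2.99 in PBS cells, a bound of 1.16-fold. Fzd1, Fzd3, Fzd4, Fzd8 and Fzd10 were not above background on either array.

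The 3 Dishevelled genes, which relay the signal from the receptor complex, differed in state, with 1 read on the DAC array alone, 1 past 2-fold lower and 1 within 2-fold. Dvl1 (chr4:155233151-155233210, mm9) had 18.3 in DAC cells and 1.67 in PBS cells, below the background call, and was at least 5.58-fold higher, a bound that was 2.02-fold with normexp correction and 1.94-fold without background subtraction. Dvl2 had 13.4 in DAC cells and 59.3 in PBS cells on its brightest probe, a difference of -2.15 (4.43-fold lower). Dvl3 had 24.4 in DAC cells and 18.8 in PBS cells, a difference of 0.38. Among brightest probes the bound of Dvl1 was the largest in the set as reported, and 3 of the 46 genes (Dvl1, Wnt2b and Fzd7; 6.52%) were read by the DAC array alone with a bound past 2-fold, against 3.55% of all gene names. Read by the PBS array alone with such a bound were 0 of the 46, against 1.52% of all gene names.

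In the destruction complex and catenins, 1 gene was at least 2-fold higher and 1 lower. Axin1 (chr17:26332106-26332165, mm9), which holds the complex together, had 168 in DAC cells and 71.9 in PBS cells, a difference of 1.22 (2.33-fold higher) on its 1 probe. It was the 1 gene of 6 past 2-fold in the high class of signal, where 2.67% of all genes were past 2-fold higher and 3.14% lower. Gsk3a, a kinase that marks β-catenin, had 32.7 in DAC cells and 19.1 in PBS cells, a difference of 0.78. Its paralogue Gsk3b had 34.4 in DAC cells and 44.0 in PBS cells on its brightest probe, a difference of -0.35. The tumour suppressor gene Apc had 18.1 in DAC cells and 12.5 in PBS cells, a difference of 0.54.

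Ctnnb1, which encodes β-catenin itself, had 1054 in DAC cells and 966 in PBS cells, a difference of 0.13. Axin2, a negative regulator and a widely used readout of β-catenin activity, was near the limit of detection, with 3.21 in DAC cells, below the background call, and 4.68 in PBS cells, a bound of 1.46-fold lower. The largest difference of the set was that of Ctnnal1, which encodes α-catulin, a protein related to α-catenin and known as a marker of mouse haematopoietic stem cells. Its brightest probe had 9.04 in DAC cells and 93.1 in PBS cells, a difference of -3.36 (10.3-fold lower). Of the 11 genes in a list of stem and multipotent progenitor markers, 10 were higher on the DAC array at any size, beside 51.4% of all genes, and 3 at least 2-fold (Hlf, Procr and Gata2), beside 10.0% of all genes. Their summed scaled intensities were 1726 in DAC cells and 1207 in PBS cells. Much of that difference came from Hlf, with 299.8 in DAC cells and 53.5 in PBS cells, and Msi2, with 729.9 in DAC cells and 588.9 in PBS cells. Without Ctnnal1 the median of the set was 0.13.

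The TCF/LEF factors bring β-catenin to DNA. Lef1, which is active in early lymphoid cells, had 13.7 in DAC cells and 6.64 in PBS cells, a difference of 1.04 (2.06-fold higher) on a probe whose coordinates also span more than its length (chr3:130907851-130926012, mm9). Its other probe, 188 bases downstream and assigned to an Ensembl transcript, was not well above background on either array. Tcf7l2 had 103 in DAC cells and 79.6 in PBS cells, a difference of 0.37, and a second measured probe gave 0.44. Tcf7l1, known mostly as a repressor, was well above background on the PBS array only, with 1.07 in DAC cells and 5.32 in PBS cells, and was at least 1.92-fold lower.

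**Figure D2:**
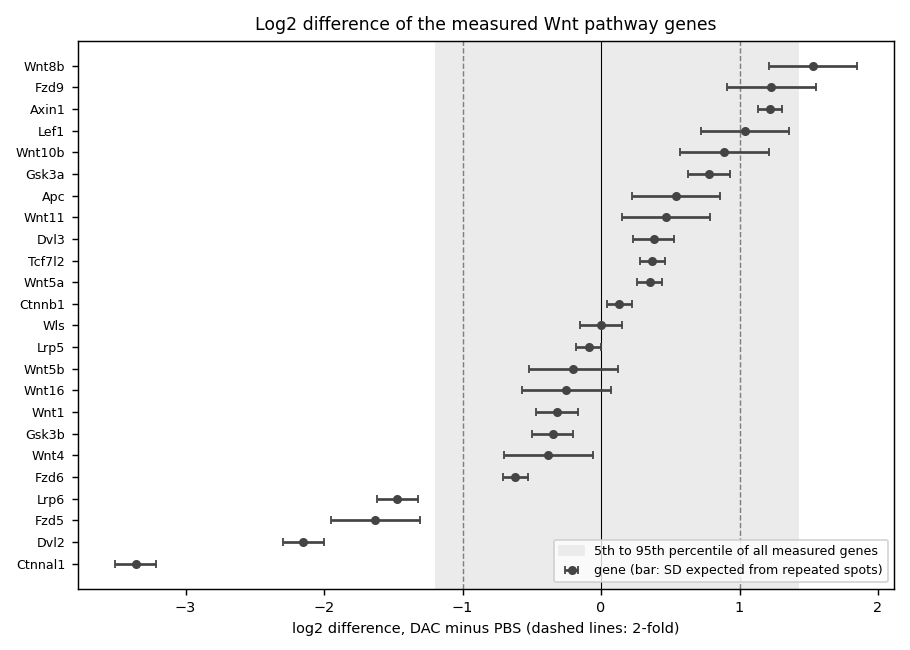
Log2 difference, DAC minus PBS, of the 24 genes measured on both arrays, with bars for the SD expected from repeated spots and a grey band from the 5th (-1.19) to the 95th (1.42) percentile of all measured genes. The 4 lower genes and Wnt8b lie outside the band, while Fzd9, Axin1 and Lef1 lie inside it.

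For all 4 lower genes, another probe of the same gene went the other way. Dvl2 had a log2 difference of 0.44 on its upstream probe, with 26.4 in DAC cells and 19.4 in PBS cells, 2425 bases from the downstream probe that gave -2.15. The downstream probe is assigned to an Ensembl transcript and the upstream one to a RefSeq transcript. Lrp6 had a difference of 0.29 on its upstream probe, with 27.4 in DAC cells and 22.5 in PBS cells, 4224 bases from the probe that gave -1.47. In both genes the lower value came from the probe nearer the 3′ end, as it did in Ctnnal1 but not in Fzd5.

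Fzd5 and Ctnnal1 had a second probe that the DAC array alone read well above background. The downstream Fzd5 probe had 14.7 in DAC cells and 0.763 in PBS cells, at least 4.47-fold higher, while the upstream probe, 2434 bases away, was 3.09-fold lower. The upstream Ctnnal1 probe had 5.08 in DAC cells and 0.785 in PBS cells, at least 1.55-fold higher, 30501 bases from the downstream probe that was 10.3-fold lower. Among all genes at least 2-fold lower with another probe read on at least 1 array, 50.9% had the opposite direction on it. Among all genes at least 2-fold higher the share was 20.0%. The DAC array read more probes than the PBS array, and what part this had in those shares was not tested.

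None of the 4 higher genes had another probe that was read on either array, so their direction rested on 1 probe each. Gsk3b and Apc, both within 2-fold on their brightest probe, also had probes far apart. Gsk3b had 51.5 in DAC cells and 8.83 in PBS cells on the upstream probe printed above, a difference of 2.54 (5.83-fold higher). Its middle and downstream probes gave -0.35 and -0.12. Apc had 28.5 in DAC cells and 2.12 in PBS cells on its downstream probe, at least 8.68-fold higher, beside 0.54 on the upstream one. Of the 5 genes with a next brightest probe measured on both arrays, 1 (Tcf7l2) had the same sign on it, against 61.4% of all such genes, and 3 had the probes at least 2-fold apart, against 26.8%.

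**Figure D3:**
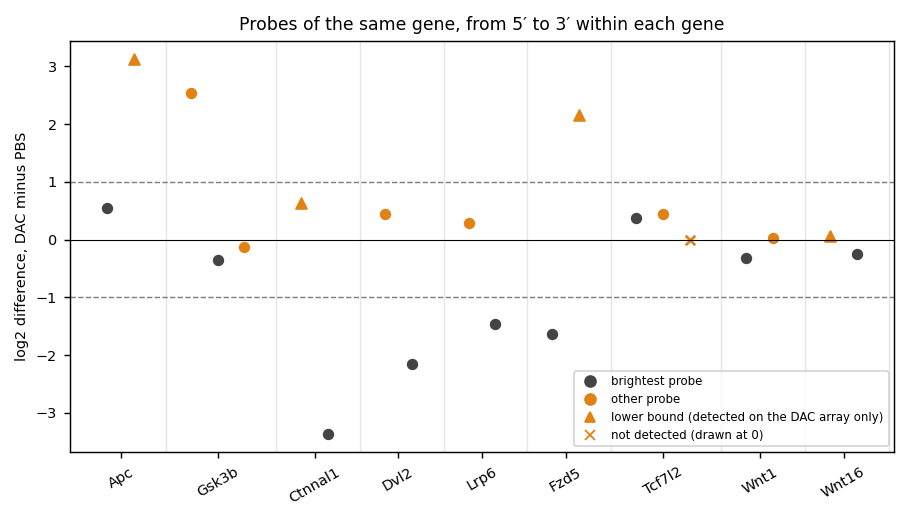
Log2 difference, DAC minus PBS, of the probes of 9 genes, from 5′ to 3′ within a gene, with the brightest probe in dark grey, other probes in orange, lower bounds as triangles and a probe read on neither array as a cross. Dvl2, Lrp6, Fzd5 and Ctnnal1 have a dark point below -1 and an orange symbol above 0.

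The genes past 2-fold were also counted by class of signal. In the low class 3 of 10 genes were at least 2-fold higher (Wnt8b, Fzd9 and Lef1) and 1 lower (Fzd5), where 14.2% and 8.59% of all genes were. In the middle class 0 of 8 were higher and 3 lower (Lrp6, Dvl2 and Ctnnal1), against 13.3% and 8.81% of all genes. With normexp background correction Wnt8b had a difference of 0.51, Fzd9 one of 0.37 and Lef1 one of 0.43, all inside 2-fold. Lef1 was also inside 2-fold under each scaling alternative, and was past 2-fold in 3 of its 10 alternatives, against 7 of 10 for Fzd9 and 8 of 10 for Wnt8b. The 3 in which Lef1 was past 2-fold were both looser filters on dim probes and the mean over measured probes. Those 3 alternatives could not change the value of Lef1, Fzd9 or Wnt8b, each with 1 measured probe. The bounds under normexp were 2.02-fold for Dvl1, 1.46-fold for Wnt2b and 1.12-fold for Fzd7, beside 5.58-fold, 3.51-fold and 2.03-fold as reported. Without background subtraction they were 1.94-fold, 1.42-fold and 1.13-fold, all inside 2-fold. With normexp Axin1 had 1.09, Ctnnal1 -2.48, Dvl2 -1.61, Lrp6 -1.31 and Fzd5 -1.01, and Fzd5 had -0.95 without background subtraction.

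**Figure D4:**
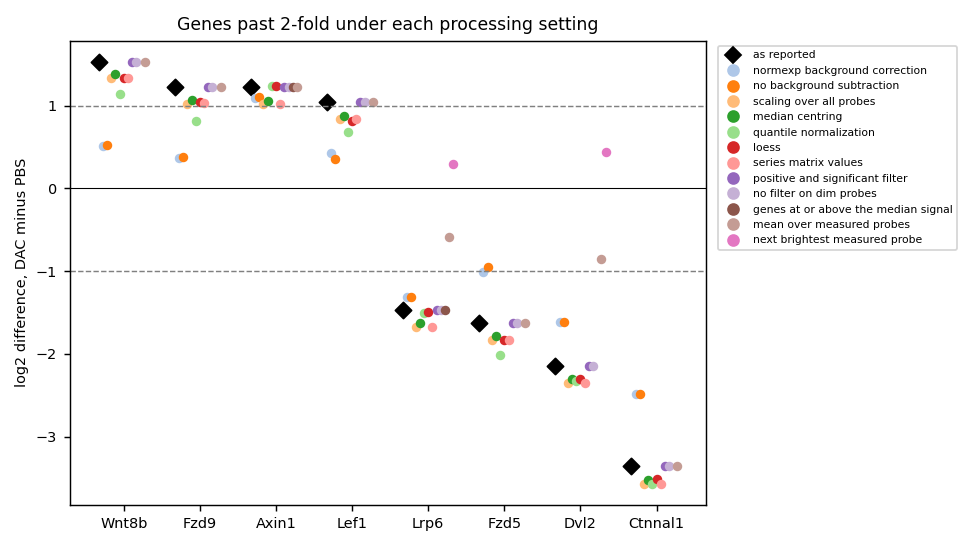
Log2 difference, DAC minus PBS, of the 8 genes past 2-fold (dashed lines) as reported (black diamonds) and under each processing alternative (coloured circles). Axin1 stays between 1.02 and 1.24 and Ctnnal1 between -3.57 and -2.48, while Dvl2 and Lrp6 cross 0 on their next brightest probe.

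The promoters of 4 genes are shown because the methyltransferases that decitabine traps act at CpG, and the genes past 2-fold differ widely in how many CpG they hold. The 250 bases before the first listed start were taken from RefSeq (GRCm38.p6), and capitals mark CpG.
Wnt8b, chr19:44493222-44493471, plus strand, higher on the DAC array: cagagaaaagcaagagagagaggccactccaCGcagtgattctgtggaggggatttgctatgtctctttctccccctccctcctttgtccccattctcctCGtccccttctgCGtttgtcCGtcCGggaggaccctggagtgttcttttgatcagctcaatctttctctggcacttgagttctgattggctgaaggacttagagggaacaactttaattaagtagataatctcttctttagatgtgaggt
Lef1, chr3:131110047-131110296, plus strand, higher on the DAC array: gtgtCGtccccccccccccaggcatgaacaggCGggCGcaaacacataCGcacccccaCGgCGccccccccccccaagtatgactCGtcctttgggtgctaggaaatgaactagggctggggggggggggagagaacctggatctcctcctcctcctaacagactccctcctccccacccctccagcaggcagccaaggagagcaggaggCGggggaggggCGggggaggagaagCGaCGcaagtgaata
Fzd9, chr5:135251048-135251297, minus strand, higher on the DAC array: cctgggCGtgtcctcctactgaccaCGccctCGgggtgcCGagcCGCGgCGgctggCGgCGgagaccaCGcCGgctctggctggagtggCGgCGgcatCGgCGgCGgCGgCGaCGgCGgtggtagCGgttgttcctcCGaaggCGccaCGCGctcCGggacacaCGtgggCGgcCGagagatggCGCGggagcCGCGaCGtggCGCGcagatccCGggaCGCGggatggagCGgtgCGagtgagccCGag
Fzd5, chr1:64737751-64738000, minus strand, lower on the DAC array on its brightest probe: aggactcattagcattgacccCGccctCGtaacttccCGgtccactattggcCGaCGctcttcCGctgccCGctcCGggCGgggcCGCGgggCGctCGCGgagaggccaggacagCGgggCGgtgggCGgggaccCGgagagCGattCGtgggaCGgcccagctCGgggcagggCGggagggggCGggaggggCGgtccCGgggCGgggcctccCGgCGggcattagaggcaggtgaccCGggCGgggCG
The Wnt8b window holds 5 CpG, that of Lef1 11, that of Fzd9 42 and that of Fzd5 32. Methylation was not measured in these cells here.

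In all, 33 of the 46 genes had a promoter in the table. Their median was 24 CpG in 250 bases, against 6 over the promoters of all 27025 genes in the table, and ranged between 5 and 48. The genes at least 2-fold higher that could be read (Fzd9 42, Lef1 11, Wnt8b 5) overlapped in CpG number with those at least 2-fold lower (Fzd5 32, Ctnnal1 18, Dvl2 13). The 12 genes within 2-fold had a median of 22, and the 8 not above background a median of 23.5. The TCF/LEF letters CTTTGAT or CTTTGAA, on either strand, occurred in 2 of the 33 windows (Gsk3a and Wnt11), which is 6.06%, against 7.67% of all windows of this length.

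Further genes of the pathway were read from lists. Nuclear cofactors of β-catenin and TCF/LEF had 7 of 25 measured genes (28%) at least 2-fold higher and 0 lower, with a median of 0.17. The 6 largest were Tcf7, Nlk, Tle1, Tbl1x, Tle3 and Ctnnbip1. Tcf7, the TCF factor of T cells and early progenitors, had 19.2 in DAC cells and 3.98 in PBS cells, a difference of 2.27, and its other probe was read on neither array. The TCF kinase gene Nlk had 38.2 in DAC cells and 8.14 in PBS cells, a difference of 2.23. Groucho co-repressors, which bind TCF/LEF factors in the absence of β-catenin, were past 2-fold higher for Tle1 (1.74, and 1.89 on a second probe) and Tle3 (1.39). Tle4 was read by the DAC array alone and was at least 8.29-fold higher. The other members of that family were within 2-fold on their brightest probe, at -0.01 for Tle2, 0.49 for Tle6 and 0.17 for Aes. A second Tle2 probe was read by the DAC array alone and was at least 3.89-fold higher, and a second Aes probe gave -0.39. Tbl1x had a difference of 1.65, and Ctnnbip1, which blocks the binding of β-catenin to TCF, one of 1.37. The 28% stands beside the background of 10.0%, and the list was chosen with earlier results of these data known. Some marker lists of cell types held like or higher shares, with 27.3% of 11 stem and progenitor genes, 33.3% of 9 T and NK cell genes and 50% of 6 megakaryocyte genes. The other marker lists held lower shares, from 0% of erythroid genes to 20.0% of neutrophil genes. The count of cofactors was 6 or 7 of 25 under the background and scaling alternatives. On the next brightest probe it was 3 of 8, where 14.7% of all genes were higher by that much. Of these 3 only Tle1 was also past 2-fold on its brightest probe. Map3k7 (1.30) and Tbl1xr1 (1.19) had -0.08 and -0.31 on theirs. Bcl9, past 2-fold on its brightest probe (1.27), had 0.23 on the next.

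The other lists held 0 to 2 measured genes past 2-fold in each direction. Of 31 further regulators of the destruction complex 2 were at least 2-fold higher, the Gsk3-binding gene Frat1 (1.60) and Ppp2r5e (1.02), and 1 lower, the Apc partner Fam123b, now Amer1 (-1.51). Those are 6.45% and 3.23%, both below the 10.0% and 6.85% over all genes. The higher count was 0 with normexp or without background subtraction and 1 under each scaling alternative. On the next brightest probe 3 of 15 were higher and 0 lower, where 14.7% and 7.75% of all genes were. These 3 were Tnks (1.95), Csnk2a2 (1.55) and Ppp2ca (1.41), with -0.34, 0.11 and -0.01 on their brightest probes. Of 30 genes of β-catenin-independent signalling 2 were higher (Ppp3cb 1.59, Vangl1 1.26) and 2 lower (Prickle1 -1.47, Prkca -1.34), which is 6.67% each way, with the other Prkca probe at least 7.31-fold higher. Celsr3, a planar polarity cadherin gene read by the PBS array alone, was at least 2.23-fold lower. Among 5 measured catenins and junction partners only Jup, which encodes γ-catenin, was past 2-fold, with 28.3 in DAC cells and 4.28 in PBS cells, a difference of 2.72.

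Ligand-side modulators were mostly unread. Of 20 antagonists, most of them secreted, 13 were not above background on either array, and the 4 measured ones lay within 2-fold. Kremen1, a receptor for the Dkk antagonists, was read by the DAC array alone and was at least 3.35-fold higher. In the R-spondin axis, which enhances Wnt signalling, 1 of 9 genes was measured on both arrays, the receptor gene Lgr6, at 0.51, and 5 were read on neither. The ubiquitin ligase gene Znrf3, which removes Frizzled receptors from the cell surface, was read by the DAC array alone and was at least 1.62-fold higher. Rspo1, read by the PBS array alone, had 0.669 in DAC cells and 13.2 in PBS cells and was at least 4.78-fold lower. The receptor gene Lgr5, likewise, had 0.640 in DAC cells and 8.07 in PBS cells and was at least 2.92-fold lower.

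Target genes of β-catenin, leaving out Axin2 and Lef1, had 1 of 12 measured genes at least 2-fold higher (Tcf7) and 0 lower, with a median of 0.16. With normexp correction that count was 0, so Tcf7 was then inside 2-fold. Myc had 390 in DAC cells and 341 in PBS cells, a difference of 0.19. Ccnd1 had a difference of 0.77 and Ccnd2 one of -0.47. Ppard, read by the DAC array alone, was at least 3.35-fold higher. Fosl1, read by the PBS array alone, was at least 2.96-fold lower.

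**Figure D5:**
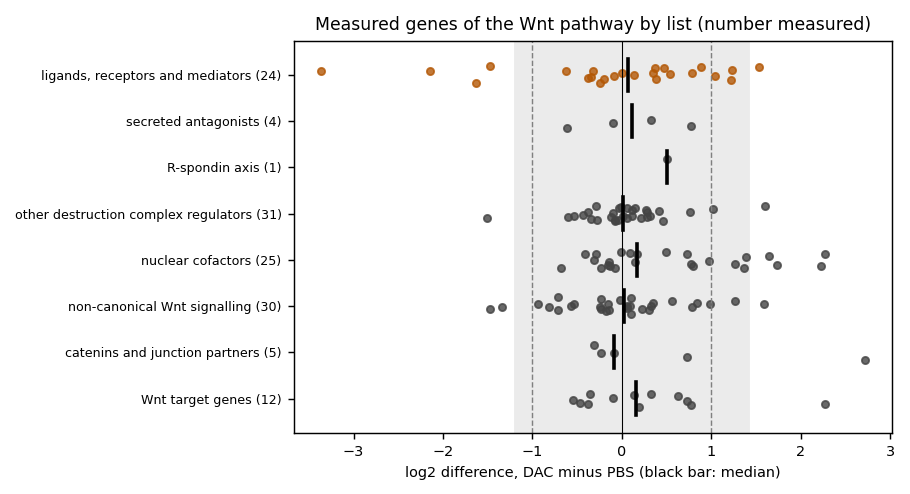
Log2 difference, DAC minus PBS, of each measured gene of the ligands, receptors and mediators (orange) and of 7 further pathway lists (grey), with the median as a black bar and the 5th to 95th percentile of all measured genes as a grey band. The nuclear cofactors have 7 points right of the 2-fold line and 0 left of its counterpart.

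Lef1 and Tcf7 are also T cell genes, so markers of that lineage were read beside them. Of 19 T and NK cell genes 9 were measured, 3 at least 2-fold higher (Cd247 1.83, Lat 1.26, Cd5 1.08) and 1 lower (Gzmb -1.47), and their summed scaled intensity was 327.6 in DAC cells and 227.2 in PBS cells. Of the 4 CD3 chain genes, Cd247 was among those 3. It had 79.8 in DAC cells and 22.5 in PBS cells, much of the gap between those sums. Cd3e had 14.1 in DAC cells and 13.2 in PBS cells, Cd3d was read by the PBS array alone (at least 4.51-fold lower) and Cd3g on neither. Il2rb, a receptor gene of T and NK cells, was read by the DAC array alone and was at least 7.02-fold higher. B cell markers had 1 of 10 measured genes at least 2-fold higher and 1 lower, with sums of 2010 in DAC cells and 1733 in PBS cells. Much of that gap came from Cd79a, with 379.7 in DAC cells and 224.9 in PBS cells. Megakaryocyte markers had 3 of 6 measured genes at least 2-fold higher (Treml1 2.66, Itga2b 1.16, Pf4 1.04) and 0 lower, with sums of 296 in DAC cells and 189.2 in PBS cells. Most of that gap was Pf4, with 175.1 in DAC cells and 85.2 in PBS cells. Erythroid markers had 0 of 7 higher and 1 lower (Gata1 -2.02), with sums of 932.9 in DAC cells and 1063 in PBS cells. Gata1 alone, with 36.6 in DAC cells and 148.6 in PBS cells, had a gap nearly as large. Neutrophil markers had 2 of 10 higher (Elane 1.56, Ltf 1.47) and 2 lower (Ngp -1.59, Lcn2 -1.25), with sums of 7784 in DAC cells and 9984 in PBS cells. Itgam alone had 4973.8 in DAC cells and 7281.6 in PBS cells, a larger gap than that between the sums, so the lower sum rested on this gene. Monocyte, macrophage and dendritic cell markers had 0 of 4 higher and 1 lower (Cx3cr1 -1.10), with sums of 1135 in DAC cells and 1282 in PBS cells. Siglech alone had 488.3 in DAC cells and 649.3 in PBS cells, a larger gap than that between these sums. Stromal, osteoblast and endothelial markers, which mark cells that make Wnt ligands in marrow, had 8 of 15 genes measured. At least 2-fold higher was 1 (Emcn 1.56) and lower were 2 (Cxcl12 -1.42, Fn1 -1.03), and at any size 3 were higher and 5 lower. Their sums were 351 in DAC cells and 368.4 in PBS cells. Much of both sums was Pdgfrb (143.0 in DAC cells, 119.3 in PBS cells) and Kdr (106.9 in DAC cells, 95.6 in PBS cells). Col3a1 and Fabp4 were read by the PBS array alone. The part of such cells in the values of Lef1, Tcf7, the ligands or the nuclear cofactors, and that of the stem and progenitor markers in any value, was not tested.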

How the data were processed

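Expression was measured on 1-colour Agilent arrays, 1 for DAC and 1 for PBS, both on 1 slide. Per the labels' protocols, total RNA with spike-in controls was amplified and labelled with Cy3 by a low-input kit. The deposited scanner files hold an intensity per spot, made with Agilent Feature Extraction 10.7.3.1 on mm9 per the file headers. The processed intensity is background-subtracted and detrended, with a substitute value where a spot was too dim, and is not normalized between arrays. The other deposited columns used, calls of 0 or 1 per spot, mark spots well above background, positive and significant, non-uniform, outlying or saturated (0 spots were saturated). The series matrix holds log2 values by the authors with column medians of 0.00. Their difference between arrays followed that of the log2 processed intensity with a slope of 1.00 and an offset of -0.60, while the baseline taken from each probe stays unknown.

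From these, non-uniform and outlying spots were dropped (55680 of 55681 probes kept), the spots of a probe were averaged as log2. Each array's 75th percentile was taken over the 25404 probes that both arrays read well above background (45.6% of probes) and was subtracted, which removed a difference of 0.397. A probe was well above background if 50% of its spots were. A gene was measured if both arrays read its brightest probe well above background, and genes were counted at 2-fold without a test. The naming rule took every gene of the set that was measured or had a bound of at least 2-fold, and up to 6 genes per list and direction past 2-fold. The genes and lists were chosen with earlier results of these data known. Alternatives covered background, scaling, filter, probe choice and gene names, with limma 3.58.1 in R 4.3.3 for normexp (offset 50), quantile and loess (span 0.4), and Python 3.11.15 otherwise. The calculation was tested on simulated data, with effects well past 2-fold and less noise than genes in the low class of signal had. Calls near 2-fold were not covered by it. With 1 array per group, precision is limited by the number of arrays.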

Additional observations from a re-analysis of the deposited data

How the results depend on the processing

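The 24 measured genes became 39 with the positive and significant call, 46 with no filter and 9 at or above the median signal. The count at least 2-fold higher, 4, became 1 with normexp correction, without background subtraction and at or above the median signal, 2 with quantile normalization, 3 with scaling over all probes, median centring, loess and the series matrix values, 8 with the positive and significant call, 9 with no filter and 1 among the 5 genes with a next brightest measured probe. Lef1 was inside 2-fold in each of those 3-gene counts (0.84, 0.88, 0.82 and 0.84). The share of all genes at least 2-fold higher, 10.0% as reported, moved as well. It was 3.97% with normexp, 3.95% without background subtraction, 5.28% at or above the median signal and between 7.33% and 8.31% under the scaling alternatives. With the positive and significant call it was 14.5%, with no filter 15.4% and on the next brightest probe 14.7%. The count at least 2-fold lower, 4, became 3 without background subtraction (Fzd5 -0.95), 5 with either looser filter, 1 at or above the median signal, 2 with the mean over measured probes and 0 on the next brightest probe. Of all genes 6.85% were lower by that much as reported. In those settings the share was 4.04%, 8.65% and 8.74%, 4.59%, 6.01% and 7.75%. Where the count stayed 4, the share was 4.14% with normexp and between 8.35% and 10.2% under the scaling alternatives. The median of 0.06 became -0.14 with scaling over all probes and with the series matrix values, -0.10 with median centring, 0.24 with the mean over probes and 0.44 on the next brightest probe. Over all genes the median moved to -0.18, -0.18 and -0.14 under those scalings, so the set shifted with it. Dvl2 reversed to 0.44 and Lrp6 to 0.29 on the next brightest probe, which reads another part of the gene. Ctnnb1 ranged between -0.08 and 0.30, Wls between -0.20 and 0.00 and Gsk3b between -0.55 and 2.54, so none of the 3 had a settled direction. Updated gene names gave the same counts. No paired analysis was possible because there was 1 array per group, and no array could be left out. Fewer or more genes enter under another filter or probe choice, and for the other changes the cause was not tested.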
